A study of Rattus norvegicus with 19 samples.

Results

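The 10 genes described here encode secreted ligands of the transforming growth factor beta (TGF-beta) family. They are growth differentiation factor 3 (Gdf3), the TGF-beta isoforms Tgfb1, Tgfb2 and Tgfb3, the bone morphogenetic proteins Bmp2 and Bmp4, the activin and inhibin subunits Inhba and Inha, and Gdf15 and Gdf10. Probes were assigned to these genes by matching the accession each probe carries to rat RefSeq symbols. All 10 genes were found, with 12 of the 30367 probes on the array, and all 10 were among the 22667 of 27003 genes that passed the filter on dim probes. Gdf3 and Tgfb2 had 2 probes each and the other genes 1 each. Gdf3 had been picked because of its level at the highest volume of corn oil, so its values there are a description and carry no test.

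The RNA came from the thymus, where T cells develop, of female Wistar rats aged 7 weeks. Rats received corn oil, a common vehicle for compounds that do not dissolve in water, by gavage at 2, 5 or 10 ml/kg, or saline at 10 ml/kg, once a day for 14 days. The study asked how the vehicle itself affects expression in this organ. Each group was dosed as 6 animals housed 3 to a cage. Arrays were made for 5 samples given saline and, in rising order of corn oil volume, for 5, 4 and 5 samples. All 4 groups were gavaged, and saline was given only at 10 ml/kg, so only the 10 ml/kg corn oil group had a saline group of equal volume. Because the labels number arrays and not animals, p-values measure the spread between these arrays, which may be technical in part.

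Ligands of this family are made as precursors whose C-terminal part forms a dimer. For most of the family, though not for every ligand named here, the dimer brings type I and type II receptor kinases together. The type I receptor then phosphorylates receptor SMAD proteins, which enter the nucleus with the common partner Smad4. TGF-beta and activin ligands use Smad2 and Smad3, and bone morphogenetic proteins use Smad1, Smad5 and Smad9. In the thymus, TGF-beta is known for its part in the formation of regulatory T cells, and Bmp4 is made by the mesenchyme and endothelium around thymic epithelium. Gdf3 is best known from early embryos and stem cells, and it has also been described in fat tissue and in macrophages.

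Levels below are log2 of the processed signal minus the 75th percentile of the array, so a level of -3 is a signal 3 log2 units below that percentile. Levels of different probes are not compared with each other. The 75th percentile signal was 1852 to 2954 per array, and 69.7% to 88.4% of spots were well above background by the scanner software's own call. The 19 arrays lay on 5 slides that each held arrays of 2 groups. On slide 1 (2 saline arrays and 2 at 2 ml/kg) the lowest signal well above background was 35.3 to 73.3, against 5.49 to 12.4 on the other slides. The 3 arrays at 10 ml/kg on slide 3 had 829 to 1028 spots flagged as non-uniform or outlying, against 234 to 690 on all others. All 10 thymocyte markers tested were well above background on every array, as were 6 of 7 thymic epithelium markers (Ptcra and Tcf7 among the thymocyte markers and Psmb11 among the epithelial ones were not tested). Saline replicate 2 stood apart, with summed adipocyte markers of 20.4 times the 75th percentile against 0.667 to 2.48 in the other saline arrays, and summed B cell markers of 5.17 against 0.74 to 1.08.

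Gdf3 was far lower at 10 ml/kg of corn oil than in any other group, on both of its probes. With the brighter probe, A_64_P096773, the levels in saline replicates 1 to 5 were -3.51, -3.19, -3.60, -3.29 and -3.61. At 2 ml/kg they were -3.40, -3.57, -3.94, -3.63 and -3.14, and at 5 ml/kg they were -3.75, -3.71, -3.46 and -3.16. Corn oil at 10 ml/kg gave -7.71, -8.78, -8.82, -8.02 and -7.81. The first 3 groups overlapped fully, and every array at 10 ml/kg lay at least 3.77 log2 units below the lowest array of any of them. In signal units the probe read 139 to 303 in saline and the lower volumes and 5.39 to 11.2 at 10 ml/kg. It was well above background on all 14 arrays of those groups and on 1 of 5 at 10 ml/kg, so the level at 10 ml/kg was at the limit of detection.

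The dimmer Gdf3 probe, A_64_P066679, gave the same order of groups at the extremes. Its levels were -4.0, -3.84, -4.88, -4.47 and -4.61 in saline, -4.51, -4.14, -4.83, -4.77 and -4.14 at 2 ml/kg, and -5.06, -4.80, -4.87 and -4.49 at 5 ml/kg. Corn oil at 10 ml/kg gave -9.04, -10.21, -7.59, -8.09 and -9.16, again well above background on 1 array. That array was replicate 3, whereas the array on which the brighter probe was detected was replicate 1.

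**Figure D1:**
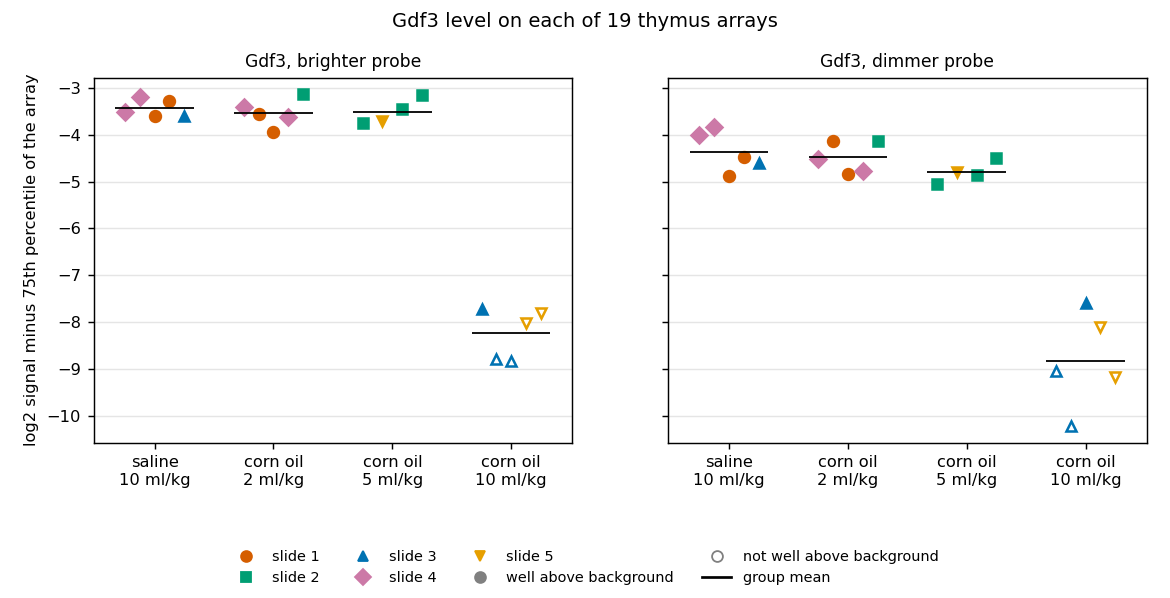
Level of Gdf3 on each array (log2 signal minus the 75th percentile of the array) by liquid and volume, for the brighter probe (left) and the dimmer probe (right). Colour and shape give the slide, open symbols are arrays on which the probe was not well above background, and bars are group means. The 5 arrays at 10 ml/kg of corn oil, on slides 3 and 5, lie below -7.5 on both probes while the other 14 lie above -5.1.

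Group means of the brighter probe were -3.44 ± 0.19 (SD, n = 5) in saline, -3.54 ± 0.29 (n = 5) at 2 ml/kg, -3.52 ± 0.27 (n = 4) at 5 ml/kg and -8.23 ± 0.54 (n = 5) at 10 ml/kg. The difference between 10 ml/kg of corn oil and saline was -4.79 ± 0.22 (SE) as measured, and the dimmer probe gave -4.46 ± 0.37. Each probe was detected on 1 of the 5 arrays at 10 ml/kg, so no fold is given. With signals raised to the lowest one well above background on their array, the brighter probe gave -4.51. The brighter probe differed by -4.69 ± 0.22 from corn oil at 2 ml/kg and by -4.71 ± 0.23 from corn oil at 5 ml/kg. Groups failed to overlap for 10.3% and 11.3% of all genes in these comparisons. Over all genes tested, 2 had a larger fall against saline, and 4 rose by as much or more. In the same comparison limma called 6.34% of all genes at an adjusted p under 0.05, and 5.42% had groups that did not overlap. Since Gdf3 was chosen on this contrast, nothing is read from its place among them.

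Among saline and the lower volumes, neighbouring Gdf3 means did not differ beyond their spread. With the brighter probe, Gdf3 at 2 ml/kg differed from saline by -0.10 ± 0.22 (95% interval -0.56 to 0.36, limma adjusted p = 1). At 5 ml/kg it differed by -0.08 ± 0.23 (95% interval -0.57 to 0.41, limma adjusted p = 0.901), and between 5 and 2 ml/kg by 0.02 ± 0.23 (95% interval -0.47 to 0.51, limma adjusted p = 0.989). The dimmer probe differed from saline by -0.12 ± 0.37 at 2 ml/kg and by -0.44 ± 0.39 at 5 ml/kg (limma adjusted p = 0.652 for the latter). Between 5 and 2 ml/kg it differed by -0.33 ± 0.39 (limma adjusted p = 0.841). Slide as a block moved the brighter probe's difference from saline at 5 ml/kg to -0.58 (limma adjusted p = 0.931), but no slide held arrays of both groups. Both saline comparisons share their saline arrays with the contrast on which Gdf3 was chosen.

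The slides bear on Gdf3 because the arrays at 10 ml/kg lay on slides 3 and 5 only. Slide 3 also carried saline replicate 5, and there the 3 arrays at 10 ml/kg differed from it by -4.83 on the brighter probe and -4.34 on the dimmer one. Slide 5 also carried replicate 2 of the 5 ml/kg group, and there the 2 arrays at 10 ml/kg differed from it by -4.20 and -3.83. With slide as a block in the fit the difference from saline was -4.81 ± 0.31. Each within-slide value rests on 1 array of the comparison group, and the median of all genes was -0.06 within slide 3 and 0.02 within slide 5. The size depended on the background correction: a normexp correction, which adds an offset of 50 to every signal and so exceeds the processed Gdf3 signals at 10 ml/kg, gave -1.53. Quantile normalization, the deposited table, a floor on the signals and the mean of both probes gave -4.62 to -4.15.

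Gdf3 has been described in macrophages and fat, and in bulk RNA fewer cells of a type and less RNA per cell cannot be told apart. All 9 macrophage and dendritic cell markers tested were well above background on every array. None of the 9 was called at 10 ml/kg against saline, and their summed level was 23.8 to 40.9 times the 75th percentile at 10 ml/kg, 25.4 to 43.4 in saline, 31.5 to 39.7 at 2 ml/kg and 29.4 to 41.7 at 5 ml/kg. Adipocyte markers, 7 tested and 0 called against saline, summed to 0.902 to 5.57 at 10 ml/kg, 0.667 to 20.4 in saline, 2.83 to 10.8 at 2 ml/kg and 8.07 to 10.2 at 5 ml/kg. The adipocyte sums at 10 ml/kg thus all lay below those at 5 ml/kg. With slide as a block their median difference was -2.52 at 10 against 5 ml/kg, with 0 of 7 genes above 0. It was -1.44 at 10 against 2 ml/kg, with 1 of 7 above 0, and -0.03 at 10 ml/kg against saline, with 2 of 7. B cell markers, 4 tested, summed to 1.25 to 1.94 at 10 ml/kg, above the 0.682 to 0.963 at 2 and 5 ml/kg. Against saline 1 of the 4 was called higher, beside 2.8% of all genes. The other saline arrays, without replicate 2, had B cell sums of 0.74 to 1.08. Itgax, Plin1, Cd79a and Ms4a1 of these lists were not tested, and no tested marker was below background on every array. The part of macrophage, adipocyte and B cell content in the Gdf3 difference was not tested.

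In RefSeq order (assembly GRCr8, used for order only), Gdf3 lies between Apobec1, which encodes an RNA-editing deaminase, and Dppa3, a germ cell and early embryo gene. Apobec1 differed between 10 ml/kg and saline by 0.13 ± 0.14 (limma adjusted p = 0.568) and Dppa3 by -0.04 ± 0.16 (limma adjusted p = 0.89). Within 5 genes on either side Mfap5, Slc2a3 and Foxj2 were also tested, and none of these 5 neighbours was called in any of the 6 comparisons. The stem cell factor Nanog was on the array but failed the filter, and 3 further neighbours had no probe matched.

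The genes whose level ran closest to that of Gdf3 over the 19 arrays were those with the same break at 10 ml/kg. Of 12216 named genes compared, the 5 highest Pearson correlations were with Vegfb (0.989), Wdr45b (0.989), Fastkd2 (0.984), Cfap68 (0.979) and Spin1 (0.966). The 5 lowest were with Mei1 (-0.99), Bad (-0.984), Lcn2 (-0.981), Bloc1s6 (-0.975) and Cenpt (-0.973). Vegfb, which encodes a vascular endothelial growth factor, had a mean of -1.61 in saline and -9.86 at 10 ml/kg, where it was well above background on 0 of 5 arrays. Bad, which encodes a protein that promotes cell death, went the other way, from -5.58 to -0.63. The arrays share slides and groups, and the correlations describe mainly the step between 10 ml/kg and the rest. Over the 14 arrays without that group Gdf3 correlated with Vegfb at 0.0736, Wdr45b at 0.686, Fastkd2 at 0.518, Cfap68 at -0.334 and Spin1 at 0.262. For Mei1 the value was -0.72, for Bad -0.343, for Lcn2 -0.27, for Bloc1s6 0.0953 and for Cenpt -0.463. The signs for Cfap68 and Bloc1s6 thus turned, and Mei1 was well above background on 3 of 5 arrays in saline and at 2 ml/kg. In the whole table, 324 genes had all 5 arrays at 10 ml/kg below the other 14 and 314 had all 5 above them. Gdf3 was 1 of 3 genes that were well above background on all other 14 arrays and on at most 1 array at 10 ml/kg. Since Gdf3 was chosen for its level at 10 ml/kg, nothing is read from its place among these 3.

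The other 9 ligands showed no called difference in the 5 comparisons in which they were tested. At 10 ml/kg against saline, the contrast on which the set was chosen, their differences ran from -1.97 for Tgfb2 to 0.69 for Gdf10. Against the lower volumes, 0 of the 9 were called at 10 against 2 ml/kg, where limma called 12.5% of all genes, and 0 at 10 against 5 ml/kg, where it called 7.94% (1.23% and 1.2% with slide as a block). Of all 10 ligands, 0 were called at 5 ml/kg against saline, at 2 ml/kg against saline or at 5 against 2 ml/kg, where 0% of all genes were called. At an unadjusted p under 0.05 limma had 1, 0 and 0 of the 10 in those 3 comparisons, against 8.29%, 0.922% and 8.5% of all genes. Over the 10 ligands the median difference at 10 ml/kg against saline was -0.22, beside -0.13 over all genes. At 5 and 2 ml/kg against saline it was -0.12 and 0.13, beside -0.01 and 0.04.

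**Figure D2:**
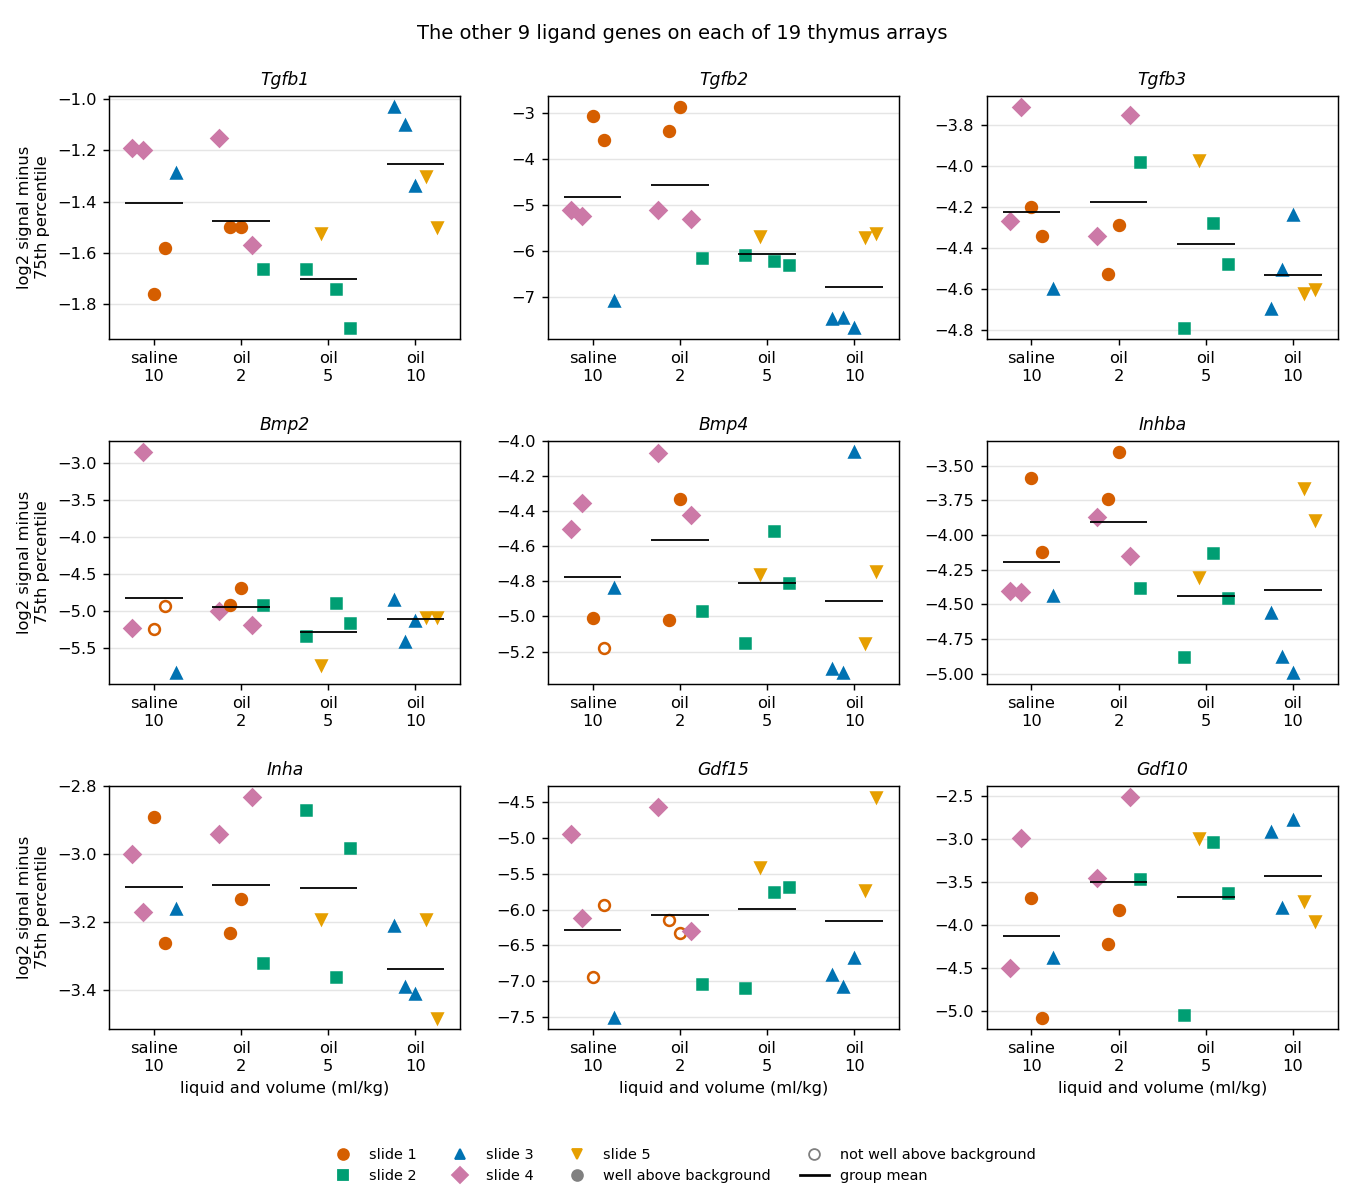
Levels of the other 9 ligand genes on each array (log2 signal minus the 75th percentile of the array, each panel with its own scale) by liquid and volume in ml/kg. Colour and shape give the slide, open symbols are arrays on which the probe was not well above background, and bars are group means. Groups overlap in all panels except for Tgfb1 at 10 against 5 ml/kg, and in the Tgfb2 panel the arrays of each slide lie together.

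Tgfb1 encodes the TGF-beta isoform most abundant in immune cells, and its probe was well above background on all 19 arrays. Its levels were -1.19, -1.20, -1.76, -1.58 and -1.29 in saline and -1.15, -1.50, -1.50, -1.57 and -1.66 at 2 ml/kg. They were -1.66, -1.52, -1.74 and -1.89 at 5 ml/kg and -1.03, -1.10, -1.34, -1.30 and -1.50 at 10 ml/kg. The 5 ml/kg arrays were the lowest as a group, and at 10 ml/kg every array lay above them by a margin of 0.02. Groups failed to overlap here for 11.3% of all genes in either direction, and for 5.16% with 10 ml/kg above. The difference of 0.45 ± 0.14 (95% interval 0.15 to 0.74) between 10 and 5 ml/kg fell just short of the threshold (limma adjusted p = 0.0577). It fell below the threshold when saline replicate 3 was left out (limma adjusted p = 0.0424) and when replicate 5 at 10 ml/kg was left out (0.51, limma adjusted p = 0.0299). The slide block gave 0.16 (limma adjusted p = 0.807), and within slide 5 it was 0.12. Against saline Tgfb1 differed by 0.15 ± 0.13 at 10 ml/kg, by -0.30 ± 0.14 at 5 ml/kg (limma adjusted p = 0.576) and by -0.07 ± 0.13 at 2 ml/kg (limma adjusted p = 1).

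Tgfb2, the isoform known mainly from epithelium and mesenchyme, had the widest range of the 9 ligands, and that range followed the slides. With its brighter probe, the levels in saline replicates 1 to 5 were -5.10, -5.25, -3.06, -3.58 and -7.10, and at 2 ml/kg they were -5.10, -3.39, -2.86, -5.31 and -6.15. They were -6.10, -5.68, -6.21 and -6.31 at 5 ml/kg and -7.48, -7.47, -7.67, -5.69 and -5.62 at 10 ml/kg. By slide the same 19 values formed 5 narrow bands: -3.58 to -2.86 on slide 1, -6.31 to -6.10 on slide 2, -7.67 to -7.10 on slide 3, -5.31 to -5.10 on slide 4 and -5.69 to -5.62 on slide 5. Ranked over all 19 arrays, saline arrays were thus among the highest where they lay on slide 1 and near the lowest where they lay on slide 3.

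Slide alone accounted for 98.6% of the variance of Tgfb2 over the arrays and group alone for 42.2%. Only 0.11% of all genes had as large a share for slide, and the medians over all genes were 58.1% for slide and 28.3% for group. The other Tgfb2 probe, well above background on 16 arrays, gave 82.1% for slide and 29.5% for group. Without a block, Tgfb2 differed from saline by -1.97 ± 0.73 at 10 ml/kg (-2.54 without saline replicate 5) and by -1.26 ± 0.78 at 5 ml/kg (limma adjusted p = 0.579). Between 10 and 2 ml/kg it differed by -2.22 ± 0.73 (95% interval -3.79 to -0.66, limma adjusted p = 0.0546). That adjusted p fell below 0.05, to between 0.0289 and 0.0447, on leaving out replicate 3 or 5 of saline, replicate 5 of the 2 ml/kg group, or replicate 4 or 5 of the 10 ml/kg group. With slide as a block the differences were -0.30 at 10 ml/kg against saline, -0.17 at 5 ml/kg against saline and -0.32 between 10 and 2 ml/kg (limma adjusted p = 0.549 for the last). Within slides the Tgfb2 difference was -0.44 for 10 ml/kg against saline on slide 3, 0.19 and -0.03 for 2 ml/kg against saline on slides 1 and 4, -0.06 for 5 against 2 ml/kg on slide 2 and 0.03 for 10 against 5 ml/kg on slide 5.

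**Figure D3:**
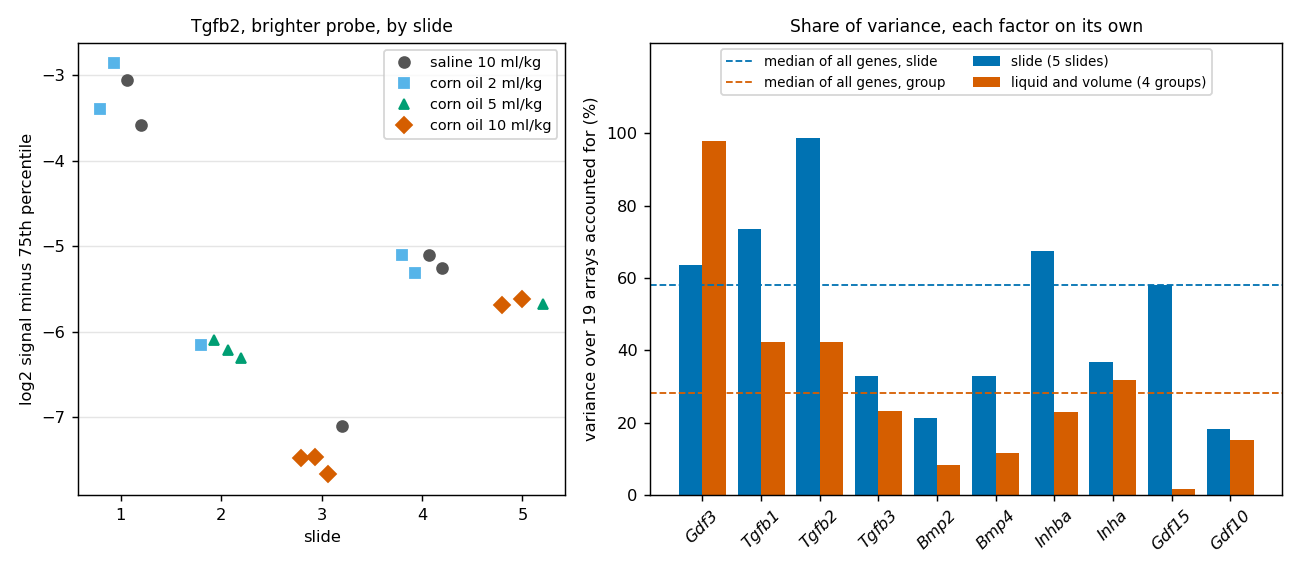
Left, Tgfb2 level (brighter probe, log2 signal minus the 75th percentile of the array) by slide, with colour and shape for liquid and volume. Right, the share of each ligand's variance over the 19 arrays accounted for by slide or by group, each taken alone, with dashed lines at the medians of all genes (58.1% and 28.3%). Tgfb2 lies in 5 bands by slide. Gdf3, which was chosen for its level in 1 group, has shares of 97.8% for group and 63.7% for slide, and the other 9 ligands have a larger share for slide, as do 83.4% of all genes.

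Tgfb3, the third isoform, differed little between groups. Its group means were -4.23 ± 0.32 (SD, n = 5) in saline, -4.18 ± 0.31 (n = 5) at 2 ml/kg, -4.38 ± 0.34 (n = 4) at 5 ml/kg and -4.53 ± 0.18 (n = 5) at 10 ml/kg, and all 19 arrays were well above background. The largest of its differences, -0.36 ± 0.18 between 10 and 2 ml/kg, had a 95% interval of -0.75 to 0.03 (limma adjusted p = 0.158).

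Bmp2, a ligand of the bone morphogenetic protein receptors, was set apart by 1 array. Saline replicate 2, the array with the high adipocyte and B cell markers, had a level of -2.84, and the other 4 saline arrays had -5.24, -5.25, -4.94 and -5.84. The arrays given corn oil ran from -5.20 to -4.69 at 2 ml/kg, -5.74 to -4.89 at 5 ml/kg and -5.42 to -4.85 at 10 ml/kg, all inside or above the range of those 4. The part of other cells in the high value was not tested. Bmp2 differed from saline by -0.29 ± 0.38 at 10 ml/kg, -0.47 ± 0.41 at 5 ml/kg (limma adjusted p = 0.653) and -0.13 ± 0.38 at 2 ml/kg (limma adjusted p = 1). Without saline replicate 2 all 3 signs turned, to 0.20, 0.03 and 0.37, and the last 2 had limma adjusted p of 0.971 and 1. With slide as a block the Bmp2 difference at 10 ml/kg was 0.52.

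Bmp4, made in the thymus by cells around the epithelium, had levels of -4.50, -4.35, -5.01, -5.18 and -4.84 in saline and -5.30, -5.32, -4.06, -5.15 and -4.74 at 10 ml/kg. Replicate 3 was the highest of the 10 ml/kg arrays and also the highest of all 19. Mean levels were -4.56 ± 0.42 (SD, n = 5) at 2 ml/kg and -4.81 ± 0.26 (n = 4) at 5 ml/kg. The difference between 10 ml/kg and saline was -0.14 ± 0.25, with a 95% interval of -0.67 to 0.39.

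Inhba encodes the subunit that forms activin A as a homodimer, and Inha the subunit that turns activin into inhibin. Inhba levels were -4.40, -4.41, -3.59, -4.12 and -4.44 in saline and -3.87, -3.74, -3.40, -4.15 and -4.38 at 2 ml/kg. They were -4.88, -4.30, -4.13 and -4.45 at 5 ml/kg and -4.56, -4.88, -4.99, -3.66 and -3.89 at 10 ml/kg. Within the last group the 3 arrays of slide 3 lay between -4.99 and -4.56 and the 2 of slide 5 at -3.66 and -3.89. Slide accounted for 67.5% of the variance of Inhba and group for 23%. The difference between 5 and 2 ml/kg was -0.53 ± 0.28 (limma adjusted p = 0.568), and between 10 and 2 ml/kg it was -0.49 ± 0.26 (limma adjusted p = 0.181).

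Inha had the narrowest range of the 10 ligands, 0.65 over all 19 arrays. Its group means were -3.10 ± 0.15 (SD, n = 5) in saline, -3.09 ± 0.20 (n = 5) at 2 ml/kg, -3.10 ± 0.22 (n = 4) at 5 ml/kg and -3.34 ± 0.13 (n = 5) at 10 ml/kg. At 10 ml/kg the levels were -3.21, -3.39, -3.41, -3.19 and -3.48, inside or just below the saline range of -3.26 to -2.89. The difference of -0.24 ± 0.12 from 2 ml/kg was not past the threshold (limma adjusted p = 0.132), and the median of all genes in that comparison was -0.19.

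Gdf15, a circulating ligand known to rise under cell stress, had a dim probe that was well above background on 15 arrays. Its levels ran from -7.51 to -4.94 in saline, -7.04 to -4.56 at 2 ml/kg, -7.10 to -5.40 at 5 ml/kg and -7.08 to -4.42 at 10 ml/kg, so every group spanned most of the full range. Group accounted for 1.64% of its variance and slide for 58%. It differed from saline at 10 ml/kg by 0.12 ± 0.58, and the 95% interval of -1.11 to 1.36 leaves room for a change of more than 2-fold in either direction.

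Gdf10, also called Bmp3b, is a relative of Bmp3 and was well above background on all 19 arrays. Levels were -4.50, -2.99, -3.68, -5.07 and -4.38 in saline and -2.92, -3.80, -2.78, -3.72 and -3.95 at 10 ml/kg. They were -3.45, -4.22, -3.82, -2.51 and -3.47 at 2 ml/kg and -5.04, -2.99, -3.03 and -3.63 at 5 ml/kg. All 3 corn oil means lay above the saline mean, by 0.63 ± 0.44 at 2 ml/kg (limma adjusted p = 1), 0.45 ± 0.47 at 5 ml/kg (limma adjusted p = 0.71) and 0.69 ± 0.44 at 10 ml/kg. The groups overlapped in each case.

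**Figure D4:**
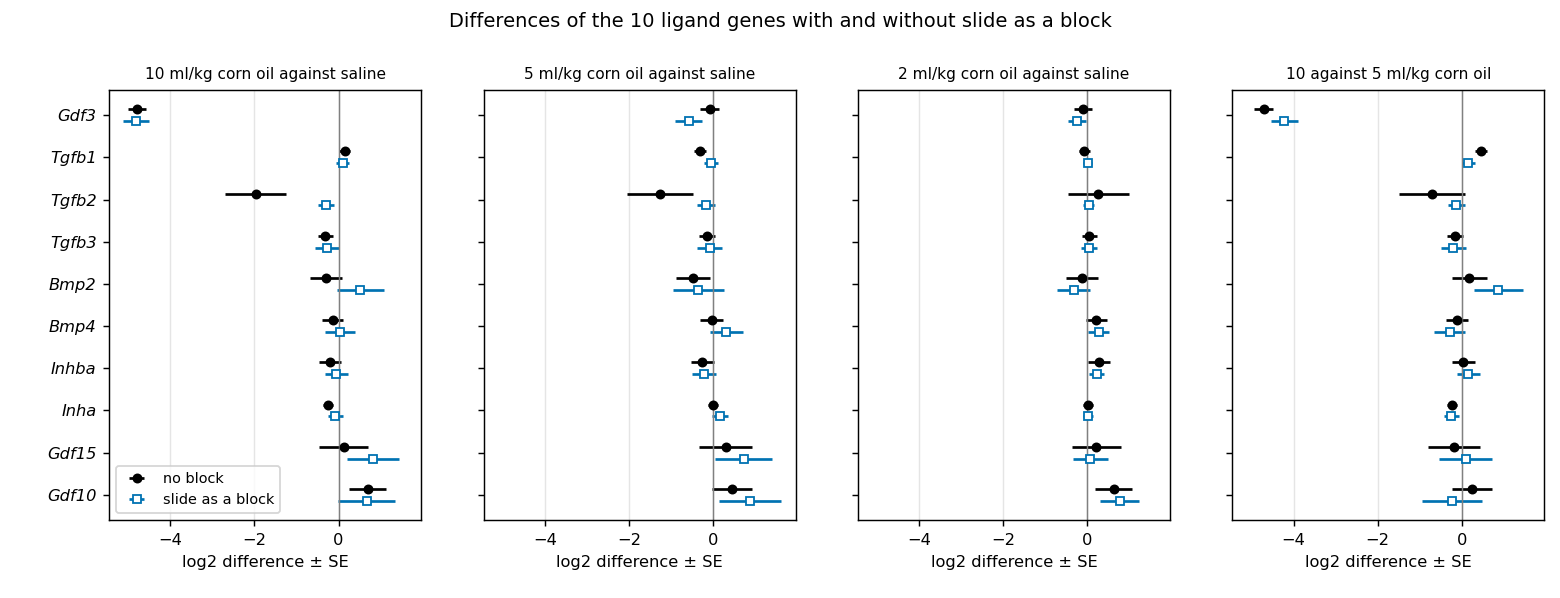
Differences (log2, with the SE as bars) of the 10 ligand genes in 4 comparisons, without a block (filled circles) and with slide as a block (open squares). Gdf3 stands near -4.8 at 10 ml/kg against saline in both fits, whereas the Tgfb2 difference goes from -1.97 to -0.30.

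The rest of the family and of the pathway was followed through 5 lists by role. At 10 ml/kg against saline, limma called 6 of 89 genes tested on these lists, beside 6.34% of all genes (2.8% higher and 3.54% lower). Without saline replicate 5, the only saline array on slide 3, the calls numbered 22 on the lists and 4696 in the whole table. With slide as a block the call remained for Bmp3 alone, beside 2% of all genes. None of the 89 was called at 2 or 5 ml/kg against saline or between those volumes, where no gene of the table was called.

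Among the other ligands of the family, 17 of 27 were tested, and at 10 ml/kg against saline 1 fell, 0 rose and 16 did not pass the test. The one that fell was Bmp3, an antagonist within the bone morphogenetic protein group, with a difference of -1.72 ± 0.27 (limma adjusted p = 0.001). Its probe was detected above background on 3 of 5 saline arrays and 0 of 5 at 10 ml/kg, so the measured levels of -7.28 ± 0.26 and -9.0 ± 0.56 (SD, n = 5 each) give only a bound of at least 1.67-fold lower. The saline mean behind that bound includes arrays on which the probe was not detected. Adding slide as a block gave -1.97 for Bmp3 (limma adjusted p = 0.0229). The median difference of the list was -0.76 with 2 of 17 genes above 0, beside a median of -0.13 and 35.5% of all genes above 0. At 5 ml/kg it was -0.39 with 3 of 17 above 0, beside -0.01 and 47.9%. These medians did not keep their size with slide as a block: the list then had a median of 0.10 with 10 of 17 above 0 at 10 ml/kg (all genes -0.01 and 48.3%) and of -0.06 with 7 of 17 above 0 at 5 ml/kg.

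At 10 against 2 ml/kg, Bmp3 was lower (-1.14 ± 0.27, limma adjusted p = 0.0154), and so was Lefty1, a secreted inhibitor of Nodal and a family member (-1.22 ± 0.34, limma adjusted p = 0.0326). Lefty1 differed by -0.33 with slide as a block (limma adjusted p = 0.742), and it was well above background on 3 of 5 arrays at 10 ml/kg. At 10 against 5 ml/kg Bmp3 again was lower (-1.62 ± 0.29, limma adjusted p = 0.00295). Its probe was well above background on 2 of 5 arrays at 2 ml/kg and 2 of 4 at 5 ml/kg. Those group means thus include undetected signals, and no bound on the fold is given against them. The slide block gave Bmp3 differences of -1.40 and -1.59 in these 2 comparisons, neither past the threshold (limma adjusted p = 0.152 and 0.0954). Bmp3 thus was not well above background on any array at 10 ml/kg, while 7 of the other 14 arrays detected it.

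Of the receptors and co-receptors, 16 of 20 were tested. At 10 ml/kg against saline 2 fell, 0 rose and 14 did not pass. Amhr2, the type II receptor for anti-Mullerian hormone, fell by 1.02 ± 0.23 on the log2 scale (limma adjusted p = 0.0129), and Bmpr1b, a type I receptor for bone morphogenetic proteins, by 0.71 ± 0.19 (limma adjusted p = 0.0385). Both also fell at 10 against 2 ml/kg, Amhr2 with a difference of -1.15 ± 0.23 (limma adjusted p = 0.00544) and Bmpr1b with -0.96 ± 0.19 (limma adjusted p = 0.00582). Bmpr1b fell at 10 against 5 ml/kg too (-1.11 ± 0.21, limma adjusted p = 0.00388). Levels of Bmpr1b ran from -7.23 to -5.99 at 10 ml/kg, -6.23 to -5.55 in saline, -5.98 to -5.42 at 2 ml/kg and -5.94 to -5.38 at 5 ml/kg. Amhr2 at 10 ml/kg lay between -8.02 and -7.87 on slide 3 and at -6.94 and -7.26 on slide 5, beside -7.07 to -6.07 in saline. Both genes were well above background on 3 of 5 saline arrays. The co-receptor Cfc1 was called lower at 10 against 5 ml/kg (-0.76 ± 0.23, limma adjusted p = 0.0493) but differed by -0.07 from saline. The list's median at 10 ml/kg against saline was -0.11, beside -0.13 over all genes. No receptor was called with slide as a block. The Bmpr1b differences were then larger, at -1.08 against saline, -1.38 against 2 ml/kg and -1.31 against 5 ml/kg, with limma adjusted p of 0.072, 0.0507 and 0.0516. Those of Amhr2 were smaller, at -0.71 against saline and -0.65 against 2 ml/kg, with limma adjusted p of 0.289 and 0.419.

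The SMAD list, with 13 of 15 genes tested, had no called member at 10 ml/kg against saline. The smallest p-values were those of Smad2, the TGF-beta and activin effector (-0.36 ± 0.12, limma adjusted p = 0.0741), and of its partner Smad3 (limma adjusted p = 0.141). Smad3 was well above background on 2 of 5 saline arrays and 0 of 5 at 10 ml/kg, so its means of -7.25 and -8.76 give only a bound of at least 1.7-fold lower. Its saline mean was raised by the 2 arrays of slide 1, at -5.37 (replicate 3, well above background) and -5.32 (replicate 4, not well above background). The other 3 lay between -8.66 and -8.39, and the second detected array, replicate 5, was at -8.39. The saline median was also -8.39, so the bound rests on a mean lifted in part by an undetected signal. Smad2 was called lower at 10 against 2 ml/kg (-0.40 ± 0.12, limma adjusted p = 0.0346), and the slide block gave -0.45 with a limma adjusted p of 0.173. At 10 ml/kg Smad2 lay between -2.35 and -2.18 on slide 3 and at -1.84 and -1.65 on slide 5, beside -1.80 to -1.61 in saline. The list's median was -0.11 against saline.

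Of the extracellular inhibitors and latency proteins, 24 of 30 were tested, with 1 lower, 0 higher and 23 not past the test at 10 ml/kg against saline. Sostdc1, a secreted antagonist of bone morphogenetic proteins and Wnt, fell by 0.95 ± 0.25 on the log2 scale (limma adjusted p = 0.0346). Its 5 saline arrays lay between -5.11 and -4.82. At 10 ml/kg the 3 arrays of slide 3 lay between -6.82 and -5.93, and the 2 of slide 5 at -5.09 and -5.37. At 10 against 2 ml/kg the difference was -1.24 ± 0.25 (limma adjusted p = 0.00626), and at 10 against 5 ml/kg it was -0.90 ± 0.27 (limma adjusted p = 0.0517). These 3 differences were -1.06, -1.25 and -0.64 with slide as a block, with adjusted p of 0.091, 0.0888 and 0.503.

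Of the target genes, 19 of 20 were tested, with 2 higher, 0 lower and 17 not past the test at 10 ml/kg against saline. Timp1, an inhibitor of matrix metalloproteinases, rose by 0.57 ± 0.10 (limma adjusted p = 0.00255), and its levels of -0.37 to 0.06 at 10 ml/kg lay above the -0.95 to -0.62 in saline. Col1a1, which encodes a chain of type I collagen, rose by 1.32 ± 0.30 (limma adjusted p = 0.0141), from levels of -1.81 to 0.13 in saline to 0.10 to 0.54 at 10 ml/kg. At 10 against 5 ml/kg Timp1 (0.72 ± 0.11, limma adjusted p = 0.000706), the inhibitor of bHLH factors Id4 (0.81 ± 0.18, limma adjusted p = 0.0105) and the cell cycle inhibitor Cdkn2b (0.50 ± 0.15, limma adjusted p = 0.0493) were called higher. None of these was called with slide as a block, although the differences of Timp1 (0.56) and Col1a1 (1.33) against saline kept their size. The list's median was -0.04 against saline, beside -0.13 over all genes.

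Fibroblast and endothelium markers, a list that also holds Col1a1, moved with these targets. Of the 10 tested, 4 were called higher at 10 ml/kg against saline, beside 2.8% of all genes. With slide as a block 0 were called, beside 2% of all genes in either direction. Their summed level was 13 to 18.5 at 10 ml/kg, 7.35 to 19.6 in saline, 10.4 to 14.8 at 2 ml/kg and 7.29 to 15.7 at 5 ml/kg, and saline replicate 2 had the 19.6. The part of fibroblast content in the Timp1 and Col1a1 differences was not tested.

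**Figure D5:**
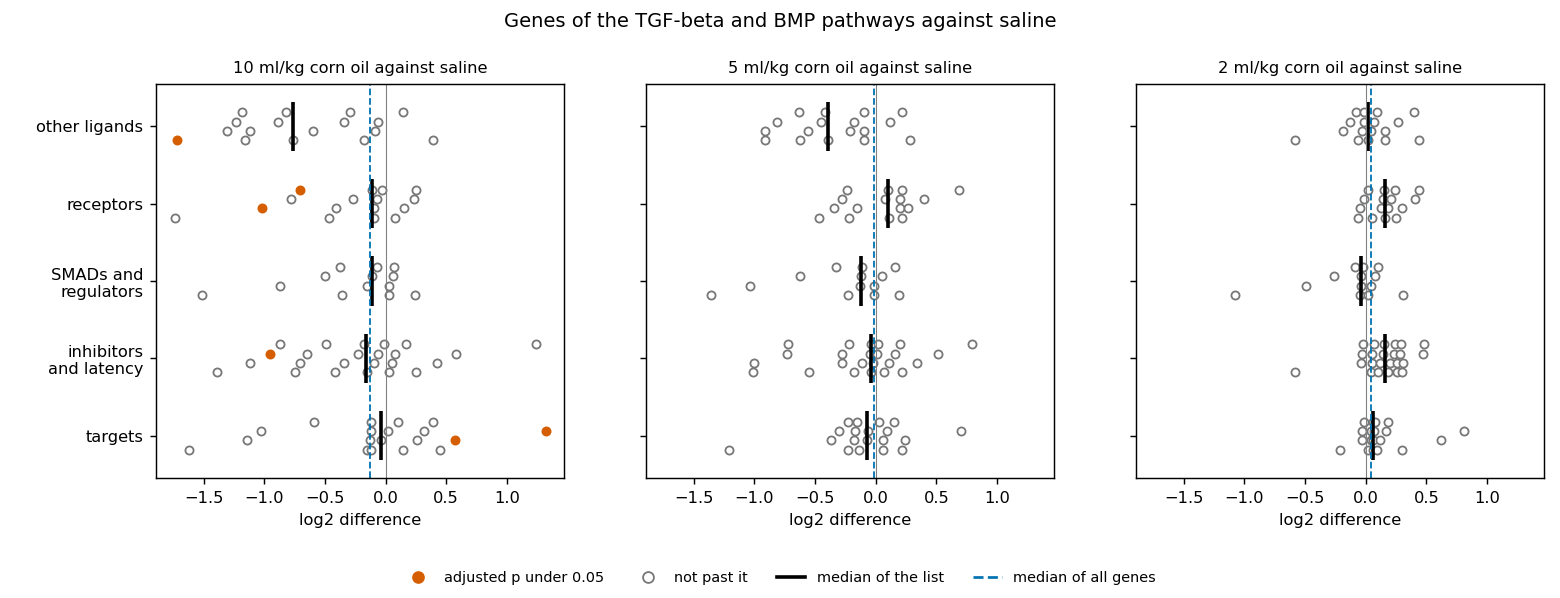
Difference (log2) from saline of each tested gene in 5 lists of the pathway at 10, 5 and 2 ml/kg of corn oil. Filled points passed an adjusted p of 0.05, black bars are list medians and the dashed line is the median of all genes. Called genes appear only at 10 ml/kg, 4 to the left and 2 to the right, and the other ligands have a median of -0.76 there, which is 0.10 with slide as a block.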

How the data were processed

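Thymus RNA was measured on 19 1-colour arrays. Per the file headers, Feature Extraction 10.7.3.1 produced the deposited spot intensities, background-subtracted and on a linear scale. The steps behind the authors' deposited value table are not given in the sources used here, so that table served as an alternative setting. Each level is the log2 of a deposited processed intensity minus its array's 75th percentile. Control spots were left out, non-uniform and population-outlier spots were set to missing, and spots of a probe were averaged. No spot was saturated.

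Accessions without version were matched to RefSeq (assembly GRCr8), which named 17328 of 30367 probes. The array design is on another build, so no coordinates are given. Probes well above background on at least 4 arrays, with at least 2 values per group, were kept, and the brightest probe stood for a gene. One limma model (version 3.58.1, under R 4.3.3) over all 19 arrays, with moderated two-sided tests and 15 residual degrees of freedom, gave 6 comparisons, with Benjamini-Hochberg adjustment over all 22667 genes. The code was tested on simulated data. Where a probe was not well above background on any array of a group, the fold is a bound, from the brighter group's mean against the higher of the dim probe's own signal and the lowest signal well above background. Precision is limited by how many arrays each group has.

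The ligands and lists were chosen with earlier results of these data known. Named pathway genes were up to 4 called per direction, list and comparison, otherwise the 2 with the smallest p, of which not all are printed. Neighbours were the 5 genes on each side of Gdf3, of which 1 is not reported here, and correlates the 5 highest and 5 lowest. Alternatives were normexp (on median signals, in place of the planned mean signals, which the files used here do not hold), quantile normalization, the deposited table, a floor, other filters, other probe rules, slide as a fixed or random block, only the 2 groups compared, a replicate block and leaving out each array. Slide came from the array barcodes.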

Additional observations from a re-analysis of the deposited data

Results flagged for a closer look

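Over 159 groups of 4 or 5 arrays (12 ligand probes and the named pathway genes), an array far from the others of its group was found in 2, and chance alone gives about 1 in 20. Amhr2 at 2 ml/kg had its highest level, -6.15, on replicate 2, where the probe was not well above background, and the gap to the next array was 0.733 of the group's range. Smad7, an inhibitory SMAD, had its lowest level at 5 ml/kg, 1.21, on replicate 2, the only array of that group on slide 5, with a gap of 0.9 of the range. No ligand probe met this mark.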

How the results depend on the processing

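The Gdf3 difference between 10 ml/kg and saline stayed negative in every alternative, from -4.92 to -4.64 on leaving out single arrays and from -4.81 to -1.53 otherwise, with normexp giving -1.53. Of the other 9 ligands, 0 were called at 10 ml/kg in every setting except these: the replicate block called 1 (Tgfb1 at 10 against 5 ml/kg, 0.47, limma adjusted p = 0.0287), and leaving out single arrays called 0 to 1 in each of the 3 comparisons with 10 ml/kg. Against saline that was Tgfb2 without saline replicate 5, at -2.54. Called pathway genes, of 89 tested, numbered 6 at 10 ml/kg against saline, 7 against 2 ml/kg and 6 against 5 ml/kg. The shares of all genes called were 6.34%, 12.5% and 7.94%. Pathway calls numbered 2, 1 and 1 with normexp and 3, 3 and 2 with quantile normalization. They numbered 1, 0 and 0 with slide as a block (2%, 1.23% and 1.2% of all genes). With slide as a random block 4 and 3 were called against 2 and 5 ml/kg, and in a fit of only the 2 groups 2 against saline. Leaving out single arrays gave 4 to 22, 5 to 16 and 4 to 9. The 22 came without saline replicate 5, the only saline array on slide 3, and against 2 ml/kg 15 or 16 were called without that array, 2 ml/kg replicate 5, or 10 ml/kg replicate 4 or 5. Calls over all genes at 10 ml/kg against saline ranged from 325 to 1607 over settings and from 931 to 4696 over arrays left out. Against 2 ml/kg the whole-table calls ranged from 278 to 3219 and from 1219 to 5324. Against 5 ml/kg they ranged from 273 to 2007 and from 755 to 3124. Whole-table calls thus moved with the settings and with the arrays left out as well. The pathway counts are therefore not read as a change particular to the pathway. The cause of these shifts was not tested. Same-numbered arrays deviated together in some pairs and apart in others (correlations from -0.644 to 0.71, and over 0.1 in 3 of 5 pairs for 2 ml/kg against saline), so the replicate numbers were not taken as pairing, and the replicate block left the Gdf3 difference from saline at -4.79. Signal over background limits Gdf3 and Bmp3 at 10 ml/kg, and Gdf15 and the dimmer Tgfb2 probe throughout.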
